A study of Mus musculus with 2 samples.

Results

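The 10 genes described here encode glycolytic enzymes: *Hk2*, *Gpi1*, *Aldoa*, *Tpi1*, *Gapdh*, *Pgk1*, *Pgam1*, *Eno1*, *Pkm* and *Ldha*. They were chosen by name for their place in the pathway, each taken from 1 of 54146 gene rows. The symbol *Aldoa* also named a second row, nearly empty, which was not used. Glycolysis splits glucose into pyruvate through a chain of cytosolic enzymes. Hexokinase traps glucose in the cell, aldolase and triose phosphate isomerase cut and balance the sugar phosphates, GAPDH makes NADH, phosphoglycerate kinase and pyruvate kinase make ATP, and lactate dehydrogenase turns pyruvate into lactate while restoring NAD+. Naive mouse embryonic stem (ES) cells use both glycolysis and respiration, and LIN28A, an RNA-binding protein, has been linked to metabolic gene expression in stem cells.

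Single cells were captured by inDrop, a droplet method that tags the 3' end of each mRNA molecule with a unique molecular identifier (UMI), from ES cells labelled as derived from the inner cell mass. There was 1 untreated wild-type (WT) library and 1 *Lin28a* knockout (KO) library, and per the study's methods these were clones of E14, a mouse ES cell line, named a2.1 (transfected wild-type) and a3.5 (knockout by CRISPR/Cas9 with a guide to *Lin28a* and puromycin selection). Each condition was thus 1 clone and 1 library, so clone, library and genotype cannot be told apart, and neither library has a replicate check. Both cultures grew for 2 days on gelatin with mouse embryonic fibroblast feeder cells in medium with LIF and the 2 inhibitors of 2i, and feeder cells could enter the droplets. No age, sex or strain was given in the labels.

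Cells were kept at 500 UMIs or more and a mitochondrial (mt-) share of at most 20%, which left 1856 WT cells with 11639256 UMIs (median 6140 a cell) and 1622 KO cells with 9340855 UMIs (median 5063.5). *Lin28a* itself stood at 107 counts per 1000000 UMIs (CPM) in the WT and 36.6 CPM in the KO library. Barcodes in both files were running numbers, so shared labels say nothing about shared cells. Of 13 fibroblast markers with enough UMIs, 11 were at least 1.5-fold lower in the KO library (median ratio 0.464) and 0 were higher. Over all genes with at least 200 UMIs, 8.45% were lower and 6.49% higher by that fold. In the WT library 41 and in the KO library 21 cells were rich in collagen transcripts. Without those cells the median ratio of the 13 markers was 1.16. *Col1a1*, *Col1a2* and *Col3a1*, which define the cells left out, are among the 13, so this change follows in part from the choice. Some markers then held under 200 UMIs, such as *Col3a1* (11 WT and 14 KO UMIs) and *Ccl2* (3 and 25). No calls are therefore made there. Of 12 ES cell markers, 1 was at least 1.5-fold higher (*Fgf4*) and 1 at least 1.5-fold lower (*Sox2*), beside 6.49% and 8.45% of all genes. Ribosomal protein (RP) UMIs were counted on 87 protein-coding genes, without rows typed as pseudogenes. Cells in which under 5% of UMIs came from these genes numbered 91 in the WT and 233 in the KO library. For this reason enzyme values are also given within bins of cells.

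Sequence upstream of the genes is shown for *Ldha* and *Pkm*, the members with the largest ratios between the libraries on their own gene rows, and for *Pgk1*, the member with the smallest. With the UMIs of genes that share part of a member's 3' end sequence added, *Gapdh* had the largest ratio, 1.60 (1.58 to 1.61). Each run is the 250 bases before a RefSeq transcript start on GRCm38.p6, read on the gene's strand, from the first listed start where a gene has several. Capitals mark the E-box CACGTG, which MYC and its partners can bind, and the hypoxia response core, searched as ACGTG or GCGTG; both were searched on both strands, and ACGTG lies within the E-box. *Ldha*, chr7:46845554-46845803, plus strand; *Pkm*, chr9:59656326-59656575, plus strand; *Pgk1*, chrX:106186850-106187099, plus strand.
Ldha: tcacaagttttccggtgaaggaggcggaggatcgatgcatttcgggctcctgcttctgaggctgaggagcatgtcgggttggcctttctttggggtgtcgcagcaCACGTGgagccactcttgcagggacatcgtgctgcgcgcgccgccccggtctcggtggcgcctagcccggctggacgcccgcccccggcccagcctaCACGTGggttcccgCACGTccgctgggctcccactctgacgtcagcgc
Pkm: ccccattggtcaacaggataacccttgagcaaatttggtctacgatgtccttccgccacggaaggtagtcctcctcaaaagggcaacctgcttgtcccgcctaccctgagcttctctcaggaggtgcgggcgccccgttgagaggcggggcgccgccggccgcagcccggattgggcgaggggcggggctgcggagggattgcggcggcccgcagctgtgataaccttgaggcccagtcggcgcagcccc
Pgk1: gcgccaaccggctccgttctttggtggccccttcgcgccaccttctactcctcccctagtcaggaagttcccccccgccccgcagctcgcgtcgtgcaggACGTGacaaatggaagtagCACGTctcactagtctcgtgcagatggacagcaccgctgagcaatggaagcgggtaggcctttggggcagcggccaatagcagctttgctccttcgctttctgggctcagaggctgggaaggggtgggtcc
The *Ldha* window held 2 E-boxes and 1 further core match. The *Pgk1* window held 2 core matches and no E-box, and these letters did not occur in the *Pkm* window shown, while the other *Pkm* window held 1 core match. Among the 16 windows of the 10 members, some of which overlap, 1 held an E-box and 12 held a core match, beside 6.02% and 38.6% of all 32851 windows of this length. A match is a description of the letters only.

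All 10 enzymes had a higher CPM in the KO library. Summed over the members, 6552 CPM (95% Poisson interval 6506 to 6599) in the WT library stood against 9239 CPM (9178 to 9301) in the KO library, a ratio of 1.41 (1.40 to 1.42). *Gapdh* stood out by its level, and *Pkm* and *Ldha*, the last 2 steps, by their ratio. Intervals here cover counting error only, and no test between conditions was possible with 1 library each. The members' median ratio was 1.24, against 1.01 over the 9835 genes with at least 200 UMIs, of which 52.3% lay above 1.

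*Gapdh* (ENSMUSG00000057666.18, chr6:125161715-125166467, minus strand, GRCm38), which encodes the enzyme of the NADH-forming step, made up 58.6% of the members' UMIs in the WT and 62.2% in the KO library. It stood at 3841 CPM (3806 to 3877) in WT and 5746 CPM (5698 to 5795) in KO cells, a ratio of 1.496 (1.48 to 1.51), just under the 1.5-fold mark used for calls. Without *Gapdh*, the ratio of the sum was 1.29. *Gapdh* thus carried more than any other member of the summed difference.

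At the lower end of the pathway, *Pkm* (ENSMUSG00000032294.17, chr9:59656368-59679375, plus strand), which encodes the muscle-type pyruvate kinase, measured 480 CPM (467 to 492) in WT and 756 CPM (738 to 774) in KO cells, a ratio of 1.58 (1.52 to 1.63). *Ldha* (ENSMUSG00000063229.15, chr7:46841475-46855627, plus strand), which encodes the lactate dehydrogenase A subunit, measured 162 CPM (155 to 170) and 253 CPM (243 to 264), a ratio of 1.56 (1.47 to 1.66). These were the 2 of 10 members past 1.5-fold higher, beside 6.49% of all genes tested, and 0 members were 1.5-fold lower, beside 8.45% of all genes. By ratio, *Pkm* lay above 95.6%, *Ldha* above 95.4% and *Gapdh* above 93.4% of the genes tested. *Eno1*, which encodes the enolase before pyruvate kinase, went from 536 CPM (523 to 550) to 690 CPM (674 to 707), a ratio of 1.29 (1.24 to 1.33).

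The other members had ratios between 1.08 and 1.29. *Aldoa*, encoding aldolase A, had 353 CPM (342 to 363) in WT and 454 CPM (440 to 468) in KO cells, a ratio of 1.29 (1.23 to 1.34). *Tpi1*, encoding triose phosphate isomerase, had 176 CPM (168 to 183) and 211 CPM (202 to 221), a ratio of 1.20 (1.13 to 1.28). *Hk2*, encoding hexokinase 2, had 209.8 CPM (202 to 218) and 241 CPM (232 to 252), a ratio of 1.15 (1.09 to 1.22). These 3 intervals stayed above 1, as did that of *Gpi1*, encoding glucose-6-phosphate isomerase, with 346 CPM (335 to 356) and 380 CPM (368 to 393) and a ratio of 1.10 (1.05 to 1.15). Of the mutase and kinase between *Gapdh* and *Eno1*, *Pgam1* had 300.4 CPM (290.5 to 310.5) and 347 CPM (335 to 359), a ratio of 1.16 (1.10 to 1.21). *Pgk1* (ENSMUSG00000062070.12, chrX:106187100-106203699, plus strand), encoding phosphoglycerate kinase 1, had 149 CPM (142 to 156) and 160.1 CPM (152 to 168), a ratio of 1.08 with an interval that began at 1.003.

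**Figure D1:**
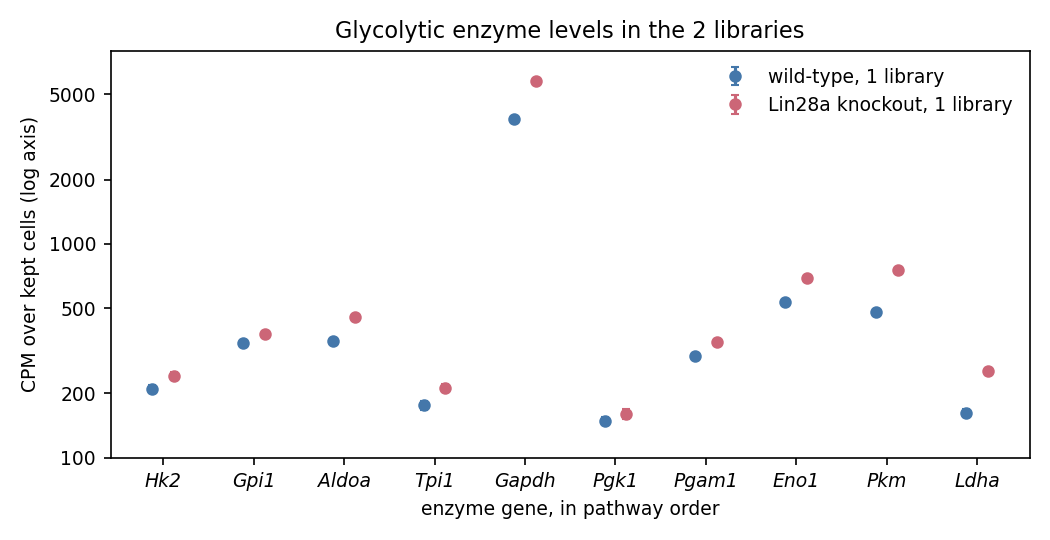
CPM over kept cells (log axis) of the 10 enzyme genes in pathway order, 1 point per library with its 95% Poisson interval. The KO point lies above the WT point for every gene, from *Pgk1* (149 and 160.1 CPM) to *Gapdh* (3841 and 5746 CPM).

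UMIs of 3' ends were not divided by transcript length, since 1 molecule gives 1 tag whatever its length. On this scale, the order in the WT library ran *Gapdh*, *Eno1*, *Pkm*, *Aldoa*, *Gpi1*, *Pgam1*, *Hk2*, *Tpi1*, *Ldha*, *Pgk1*. The counting intervals of neighbours overlapped for *Aldoa* and *Gpi1*, *Tpi1* and *Ldha*, and *Ldha* and *Pgk1*. In the KO library *Pkm* stood above *Eno1* on its own row, and *Ldha* stood above *Hk2* with overlapping intervals. With the UMIs of genes that share part of their 3' end sequence added, *Eno1* had 18890 WT and 19306 KO UMIs against 5617 and 7121 for *Pkm*. *Eno1* then stood higher in both libraries. Without matching depth, the share of cells with a UMI was lower in the KO library for 9 members, such as *Hk2* (65.7% of WT and 56.4% of KO cells), and higher for *Ldha* (52.2% and 54.4%). With each cell thinned to 500 UMIs it was higher in the KO library for 9 members, such as *Hk2* (10.3% and 11.4%) and *Ldha* (7.003% and 10.3%), and lower for *Pgk1* (7.21% and 6.43%). No cell type of these cultures is known to lack the pathway, so a background share could not be set.

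Barcodes under 500 UMIs can hold free RNA rather than cells. There *Gapdh* stood at 2070 CPM in the WT and 3461 CPM in the KO library, a ratio of 1.67, and the sum at a ratio of 1.43. The members lay higher in the KO library there too, with the exception of *Pgk1* (ratio 0.853). *Eno1* was the member most raised in these barcodes, with 922 CPM in the WT and 1083 CPM in the KO library against 536 and 690 CPM in kept cells. Free RNA and shallow cells were not told apart there, and these values carry no interval.

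Much sequence of *Gapdh* and *Eno1* is copied elsewhere in the mouse genome, and reads can be split among the copies. In all, 157 genes shared at least 10% of the 31-base words in the last 400 bases of a *Gapdh* transcript, and they held 63396 WT and 84830 KO UMIs, beside 44709 and 53673 on *Gapdh* itself. The largest, *Gm3839*, had 41135 and 50101 UMIs, a ratio of 1.52. *Gm3272*, *Gm10358* and *Gm7336* had ratios of 2.01, 1.91 and 1.86. With all copies added, the *Gapdh* ratio was 1.60 (1.58 to 1.61), past the mark that the single row missed.

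*Eno1b*, whose row shares the whole *Eno1* end sequence, held 12229 and 12270 UMIs beside 6242 and 6448 on *Eno1*. With the 5 copies added, 67.0% of the WT and 66.6% of the KO total lay outside the *Eno1* row, and the ratio was 1.27 (1.248 to 1.299). *Ldha* shared 5.18% and 4.64% of its total with other rows, and for the remaining members at most 2.95% lay elsewhere. *Hk2*, *Pgk1* and *Pgam1* had no such copy. Levels of *Gapdh* and *Eno1* on their own rows are therefore uncertain, and how the authors' counting assigned such reads is not given in the sources used here. The deposited counts also carry a number of ambiguous UMIs for each gene, in all 63462 in the WT and 58924 in the KO library. Which genes these fell on was not examined, nor whether a UMI could be counted on several rows.

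**Figure D2:**
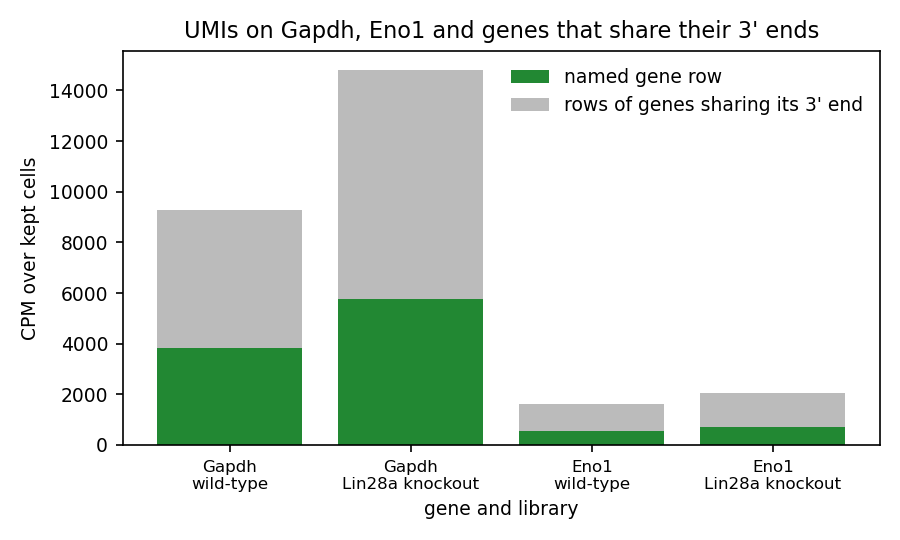
CPM over kept cells of *Gapdh* and *Eno1* in each library (1 library each, no error bar), split into the gene's own row and the rows of genes that share its 3' end sequence. In all 4 bars the grey part, the copies, is larger than the gene's own row (58.6% and 61.2% of the total for *Gapdh*, 67.0% and 66.6% for *Eno1*).

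*Gapdh* was also a reference gene of the study's quantitative PCR, so its primers are shown to place that assay beside these rows.
GAPDH-F: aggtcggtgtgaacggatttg
GAPDH-R: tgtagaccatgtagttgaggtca
Both primers matched the *Gapdh* transcript without mismatch, 123 bases apart from end to end, and both matched transcripts of 43 other genes as well, among them *Gm3839*, *Gm3272*, *Gm10358* and *Gm7336*. Those 43 genes held 61774 WT and 82272 KO UMIs. *Actb* encodes beta-actin, and the methods name actin, without a symbol, as the alternative reference. Over all kept cells *Actb* measured 5153 CPM in the WT and 4166 CPM in the KO library, a ratio of 0.808 (0.798 to 0.819). On that scale *Gapdh* and *Actb* differed between these libraries in opposite directions. *Actb* without the cells rich in collagen transcripts, which were more numerous in the WT library, was not measured.

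Enzymes outside the 10 members showed where the pathway's other rows stood. Of 18 isoenzyme genes, 6 had at least 200 UMIs over both libraries, and 1 of these was past 1.5-fold higher, beside 6.49% of all genes tested: *Pfkl*, the liver-type phosphofructokinase, with 17.4 and 26.6 CPM (ratio 1.52, 1.26 to 1.84). *Pfkp*, the more abundant phosphofructokinase, had 76.2 CPM in both libraries. *Ldhb*, the other main lactate dehydrogenase subunit, had 144 CPM in WT and 117 CPM in KO cells, a ratio of 0.814 (0.753 to 0.879), so the 2 lactate dehydrogenase genes differed in opposite directions.

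Of 14 transporter and regulator genes, 9 had enough UMIs. Past 1.5-fold were 0 of these in either direction, beside 6.49% of all genes tested higher and 8.45% lower. The glucose transporters *Slc2a1* and *Slc2a3* had ratios of 1.14 (1.05 to 1.23) and 1.14 (1.10 to 1.18). Genes at the entry of pyruvate into mitochondria lay on both sides of 1. *Pdk1*, a kinase that inhibits pyruvate dehydrogenase, had a ratio of 0.810 (0.729 to 0.901), and *Pdha1*, a subunit of that enzyme, one of 0.827 (0.751 to 0.911). Of the pyruvate carrier subunits, *Mpc1* had 1.14 (1.03 to 1.26) and *Mpc2* 0.814 (0.678 to 0.976), and the kinase *Pdk3* had 1.02 (0.845 to 1.23). All 7 pentose phosphate genes were counted, and 2 were past 1.5-fold higher, beside the same 6.49%: *G6pdx*, the entry enzyme, with 35.3 and 56.4 CPM (ratio 1.60, 1.40 to 1.82), and *Tkt*, a transketolase that returns sugar phosphates to glycolysis, with 83.7 and 132 CPM (ratio 1.57, 1.44 to 1.71). *Pgd* and *Pgls* had ratios of 1.29 (1.19 to 1.39) and 1.26 (1.15 to 1.38), *Taldo1* 1.06 (0.989 to 1.13), *Rpe* 0.894 (0.688 to 1.16) and *Rpia* 0.886 (0.724 to 1.08).

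Hypoxia-response genes outside glycolysis lay on both sides of 1. Of 15 names listed, 14 had a gene row, and 7 of these had at least 200 UMIs. Of the 7, 3 lay above 1 and the median ratio was 0.973. Past 1.5-fold were 0 of the 7 in either direction, beside 6.49% of all genes tested higher and 8.45% lower. With collagen-rich cells (at least 0.5% of UMIs from 3 collagen genes) left out, a setting added after seeing the data, 5 of the 7 lay above 1, the median was 1.08 and again 0 were past 1.5-fold, so the side of the median turned with these cells. *Kdm3a*, a histone demethylase, had 184 and 154 CPM (ratio 0.834, 0.780 to 0.892), and 0.817 (0.763 to 0.874) without collagen-rich cells. *P4ha1*, a collagen prolyl hydroxylase, had a ratio of 0.754 (0.609 to 0.931) over all kept cells and one of 1.29 (0.994 to 1.67) without collagen-rich cells, so its direction turned. It stood at 295 CPM in collagen-rich against 10.5 CPM in other WT cells, and at 175 against 13.5 CPM in the KO library.

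Cells were next compared by RP share, which runs from cells poor to cells rich in transcripts of the translation machinery. The members split into groups, with the same direction in both libraries for all but *Ldha*. In cells of 15% or more RP UMIs against those of 5 to 15%, *Pkm* was higher 1.92-fold (1.81 to 2.04) in the WT library, 813 against 424 CPM, and 1.90-fold (1.81 to 1.99) in the KO library, 1210 against 638 CPM. *Eno1* was higher 1.75-fold (1.65 to 1.86) and 1.79-fold (1.70 to 1.89). *Gapdh* followed with ratios of 1.47 (1.44 to 1.505) and 1.38 (1.36 to 1.41), and *Tpi1* with 1.43 (1.28 to 1.60) and 1.45 (1.32 to 1.60).

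On the other side were *Pgam1*, *Pgk1* and *Hk2*. *Pgam1* stood at 142 CPM in RP-rich against 329.9 CPM in the other WT cells, a ratio of 0.430 (0.377 to 0.490), and at 175 against 412 CPM in KO cells, a ratio of 0.426 (0.381 to 0.474). *Pgk1* had ratios of 0.654 (0.557 to 0.763) and 0.524 (0.450 to 0.606), and *Hk2* of 0.710 (0.623 to 0.806) and 0.546 (0.483 to 0.616). Phosphoglycerate mutase thus stood lower where *Eno1*, for the enolase that takes its product, stood higher. *Gpi1* and *Aldoa* lay between 1.09 and 1.19 in both libraries, and *Ldha* had 1.18 (1.04 to 1.33) and 0.923 (0.836 to 1.02).

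In the WT library 2 of 10 members were past 1.5-fold higher, beside 20.5% of genes, and 2 past 1.5-fold lower, beside 42.2%. In the KO library 2 members were past it higher, beside 20.5%, and 3 lower, beside 40.7%. These shares are near or below the background, so the counts mark nothing particular to the members. The median over all genes was 0.792 in the WT and 0.835 in the KO library, against 1.15 and 1.14 for the members. RP-rich cells also had a low mt- share, with a median of 0.180% in WT and 0.266% in KO cells against 1.35% and 1.64% over all kept cells. Cells under 1% mt- UMIs, against those of 1 to 5%, gave a like split. There *Pkm* had ratios of 1.69 (1.60 to 1.78) in the WT and 1.84 (1.76 to 1.93) in the KO library. *Pgam1* had 0.738 (0.685 to 0.795) and 0.601 (0.552 to 0.655), while *Pgk1* had 0.948 (0.856 to 1.05) and 0.611 (0.538 to 0.693). The parts of RP share and mt- share in the split were not tested.

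**Figure D3:**
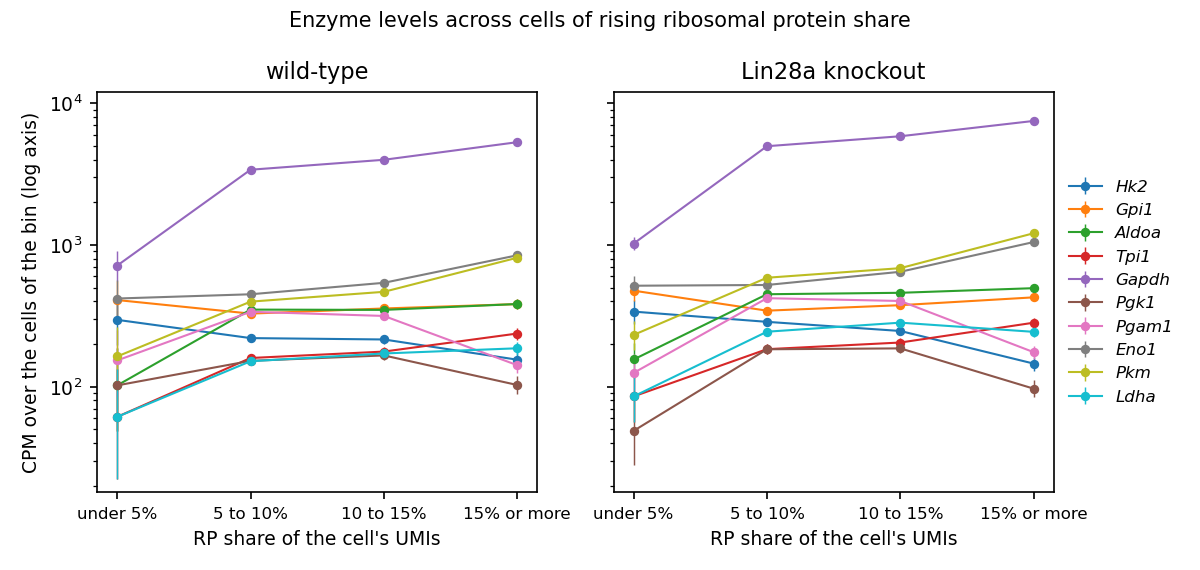
CPM (log axis) of each enzyme gene in 4 bins of cells by RP share, 1 panel per library, with 95% Poisson intervals from counting. *Gapdh*, *Eno1* and *Pkm* end highest in the bin of 15% or more, while *Pgam1* drops from 316 to 142 CPM in WT and from 403 to 175 CPM in KO cells between the last 2 bins.

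Cells under 5% RP UMIs held little *Gapdh*. In the WT library it stood at 716 CPM there against 3868 CPM in all other cells, a ratio of 0.185 (0.144 to 0.234), and in the KO library at 1023 against 5918 CPM, a ratio of 0.173 (0.155 to 0.192). *Pkm* had ratios of 0.339 (0.194 to 0.551) and 0.300 (0.236 to 0.375), *Aldoa* of 0.288 (0.138 to 0.531) and 0.335 (0.249 to 0.441), and *Ldha* of 0.376 (0.138 to 0.821) and 0.330 (0.219 to 0.478). The first enzymes of the pathway went the other way: *Hk2* had 1.42 (0.948 to 2.04) and 1.42 (1.17 to 1.72), and *Gpi1* 1.19 (0.845 to 1.62) and 1.27 (1.07 to 1.49), with the interval above 1 in the KO library for both.

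The WT values rest on few UMIs, 243 over all members in 91 cells with a median of 830 UMIs, against 1011 in 233 KO cells with a median of 1214. In the WT library 6 of 10 members were past 1.5-fold lower, beside 42.3% of genes, and 0 higher, beside 27.2%. In the KO library 7 were lower, beside 42.3%, and 0 higher, beside 29%. The sums were 0.377 (0.331 to 0.428) and 0.326 (0.306 to 0.347) of those in other cells. The *Eno1* row gave 0.780 (0.559 to 1.06) and 0.741 (0.632 to 0.863), whereas the rows of its copies gave 0.271 (0.182 to 0.390) and 0.314 (0.265 to 0.370). The intervals of *Eno1* and its copies did not overlap in either library, while the *Gapdh* copies, at 0.214 and 0.208, lay near *Gapdh* itself. The mt- share was high in the same cells, with medians of 4.32% and 5.98%, and its part in the result was not tested.

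In cells with an mt- share of 5 to 20%, the members' sum was also low and *Hk2* high, though the order of the other members differed. The sum was 0.373 (0.308 to 0.447) of that in cells under 5% in the WT and 0.469 (0.444 to 0.495) in the KO library. *Gapdh* stood at 984 against 3853 CPM in WT and 2194 against 5865 CPM in KO cells. *Hk2* again lay higher, by 1.80 (1.07 to 2.86) and 1.36 (1.10 to 1.66). The median RP share of this bin was 2.13% in WT and 3.04% in KO cells. It thus shares many cells with the bin under 5% RP and is not a separate observation. In the WT library this bin had 44 cells, and *Tpi1* had 0 of 47746 UMIs there; a limit of 3 UMIs allows up to 62.8 CPM, and the exact Poisson interval ends at 77.3 CPM.

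The difference between libraries was also taken within bins, since the libraries differed in RP share. The summed ratio lay above 1 in each of the 4 RP bins, from 1.24 (1.08 to 1.44) under 5% to 1.38 (1.36 to 1.41) at 10 to 15%. *Gapdh* kept between 1.41 and 1.47 and *Pkm* between 1.42 and 1.49 in these bins, so *Pkm* was past 1.5-fold over all cells and in none of the RP bins. *Ldha* had 1.62 (1.47 to 1.78) at 5 to 10%, 1.65 (1.49 to 1.83) at 10 to 15% and 1.31 (1.14 to 1.505) at 15% or more. *Hk2* and *Pgk1*, by contrast, were at 0.939 (0.795 to 1.11) and 0.942 (0.768 to 1.16) in the RP-rich bin. Averaged over the bins with equal weight, 9 members lay above 1 and *Pgk1* at 0.883, with a ratio of 0.478 (0.204 to 1.18) in the bin under 5%, where it had 10 WT and 16 KO UMIs.

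**Figure D4:**
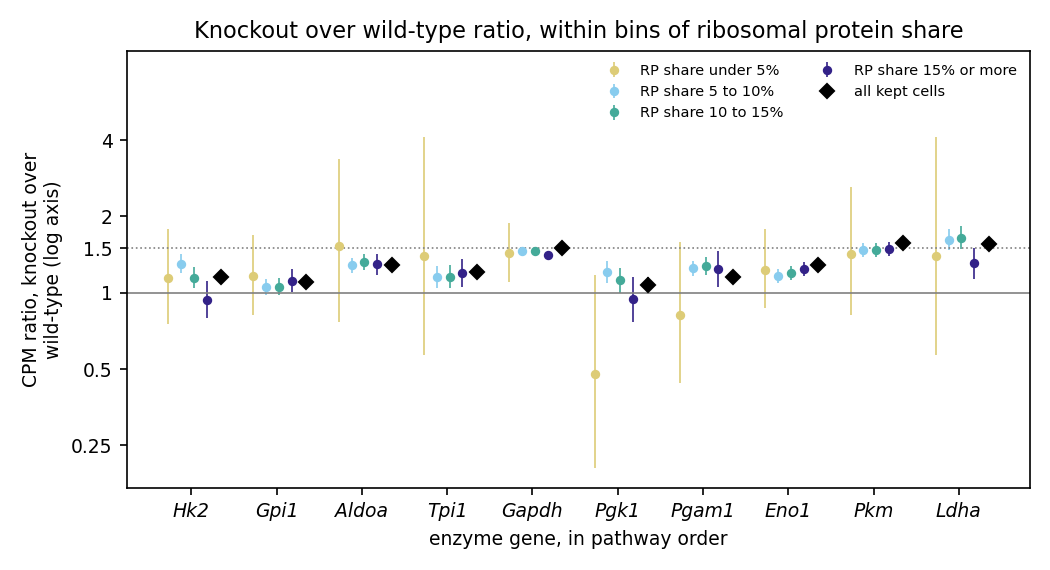
CPM ratio of the KO over the WT library (log axis) for each enzyme gene in 4 bins of RP share and over all kept cells, with 95% intervals from counting. Lines mark ratios of 1 and 1.5. *Gapdh* and *Pkm* lie close together across bins, and *Hk2* and *Pgk1* fall below 1 at 15% or more (0.939 and 0.942).

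Across bins of mt- share, the summed ratio ran from 1.42 to 1.80 and that of *Gapdh* from 1.48 to 2.23. *Pkm* was past 1.5-fold in each of the 4 mt- bins, from 1.56 (1.44 to 1.70) at 2 to 5% to 2.58 (1.14 to 7.20) at 5 to 20%, the latter on 6 WT and 98 KO UMIs. Across bins of depth, the sum ran from 1.03 (0.931 to 1.15) to 1.47 (1.45 to 1.49). *Gapdh* ran from 1.10 (0.949 to 1.28) to 1.64 (1.41 to 1.92). The sum and *Gapdh* were lowest in cells of 1000 to 2000 UMIs, with intervals that held 1. The median RP share there was 8.79% in WT and 4.62% in KO cells, and the part of RP share in this was not tested. In that bin *Pkm* was at 0.780 (0.546 to 1.13) and *Eno1* at 0.873 (0.654 to 1.18), while *Ldha* reached 3.72 (1.47 to 12.1) at 500 to 1000 UMIs, on 5 WT and 40 KO UMIs. *Pgk1* and *Pgam1* lay on both sides of 1: in cells of 10000 UMIs or more they had ratios of 1.20 (1.06 to 1.36) and 1.46 (1.33 to 1.60), and in cells of 2000 to 5000 UMIs 0.784 (0.624 to 0.980) and 0.855 (0.732 to 0.997).

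Feeder fibroblasts share these cultures and numbered differently in the libraries, so cells were also divided by collagen content. Collagen-rich cells, with at least 0.5% of UMIs and at least 3 UMIs from *Col1a1*, *Col1a2* and *Col3a1*, were 2.21% of WT and 1.29% of KO cells. Their 12 ES cell markers had a median sum of 760 CPM (WT) and 552 CPM (KO), against 4979 and 4911 CPM in other cells, and 3 cells in each library had a *Pou5f1* UMI. The 16 other fibroblast markers had a median sum of 23617 and 16758 CPM in them, against 962 and 908 CPM in other cells, and 13 WT and 7 KO cells lay within a factor of 2 of the collagen limit. *Ldha* was the member past 1.5-fold higher in them: 297 against 157 CPM in the WT library, a ratio of 1.89 (1.56 to 2.27), and 478 against 251 CPM in the KO library, a ratio of 1.91 (1.42 to 2.51). *Gapdh* stood lower, at 1735 against 3918 CPM (ratio 0.443, 0.411 to 0.477) and at 3192 against 5776 CPM (ratio 0.553, 0.496 to 0.614). The *Gapdh* copies gave 0.461 and 0.4995. Collagen-rich cells had a median RP share of 7.49% and a median of 9273 UMIs in the WT library, and 2.98% and 2295 UMIs in the KO library, where other cells had 10.9% and 5072 UMIs. The part of RP share and depth in these ratios was not tested.

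*Eno1* was also lower in collagen-rich cells, with ratios of 0.582 (0.485 to 0.693) and 0.731 (0.550 to 0.952). *Gpi1* was somewhat higher, at 1.20 (1.02 to 1.40) and 1.34 (1.01 to 1.74). *Pgk1* had 1.48 (1.18 to 1.83) in the WT and 1.15 (0.701 to 1.79) in the KO library. Of the 10 members, 1 was past 1.5-fold higher in the WT library, beside 19.5% of genes, and 2 lower, beside 43.1%. In the KO library 1 was higher, beside 19.1%, and 3 lower, beside 40%. Outside the members, *Slc2a3*, a neuron-type glucose transporter, had 66.3 CPM in collagen-rich and 656 CPM in other WT cells, and 285 against 729 CPM in the KO library. *Ldhb* had 61.4 against 147 CPM in the WT library and 120 against 117 CPM in the KO library. Leaving the collagen-rich cells out gave a ratio of 1.40 for the members' sum between libraries.

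**Figure D5:**
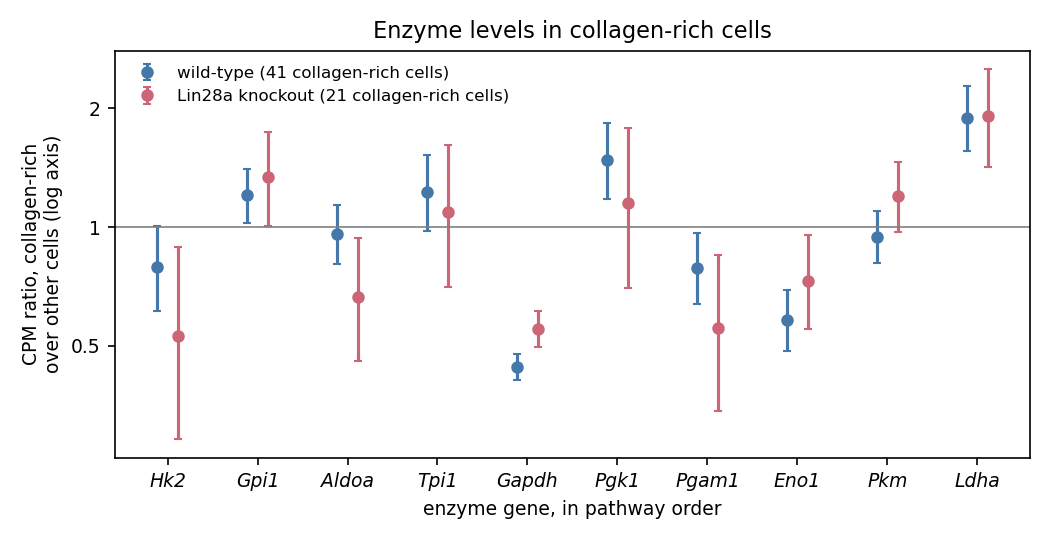
CPM ratio of collagen-rich over other cells (log axis) within each library, with 95% intervals from counting; the line marks a ratio of 1. *Ldha* is near 1.9 in both libraries (1.89 and 1.91) and *Gapdh* is at 0.443 and 0.553.

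Variation from cell to cell was read against counting. With each cell thinned to 2000 UMIs (1603 WT and 1098 KO cells), the variance over the mean, which is 1 for counting alone, was 1.46 for *Gapdh* in the WT and 1.98 in the KO library. The other 9 members lay between 0.992 (*Pgk1*) and 1.21 (*Pkm*) in the WT and between 1.05 (*Gpi1*) and 1.30 (*Pkm*) in the KO library. For a given relative spread this measure grows with the level of a gene. The squared coefficient of variation beyond counting, which is scaled to the mean, was 0.0587 in the WT and 0.0839 in the KO library for *Gapdh*. *Gpi1* lay below it in both libraries, at 0.0144 and 0.0654, and *Eno1* (0.0225) and *Pgk1* (-0.0276) lay below it in the WT library, against 0.135 and 0.458 in the KO library. *Pkm* had 0.226 and 0.193, *Ldha* 0.246 and 0.264 and *Tpi1* 0.188 and 0.395. These values carry no interval, so small gaps between members are not resolved. Among cells of 5000 UMIs or more, the range from the 10th to the 90th percentile of *Gapdh* was 2545 to 5575 CPM in 1198 WT cells and 4199 to 8253 CPM in 813 KO cells, so the libraries overlapped.

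In these deep cells, the share of *Gapdh* UMIs had a Spearman correlation with RP share of 0.516 in the WT and 0.639 in the KO library, and with mt- share of -0.420 and -0.578. *Eno1* had 0.351 and 0.501 and *Pkm* 0.336 and 0.507 with RP share, while *Pgam1* had -0.210 and -0.392. *Gapdh* and *Pkm* had 0.300 and 0.425 with each other, and *Gapdh* and *Pgam1* -0.171 and -0.294. All are descriptions over cells of 1 library, which share its preparation and a common total, and carry no p-value. Of 1708 genes, those most like the members' sum were *Gm3839* (0.640 and 0.761), *Gm3272*, *Rps2-ps10*, *Gm8730* and *Eno1b*, followed by the RP gene *Rplp0* (0.452 and 0.596), *Gm7336*, *Gm10358* and the RP genes *Rpl37* and *Rplp2*, so 5 of these 10 were copies of *Gapdh* or *Eno1*. *Rps2-ps10*, by name a pseudogene of the RP gene *Rps2*, held 36499 WT and 33815 KO UMIs, beside 16221 and 16621 on *Rplp0*. Such rows are not counted in the RP share, and RP bins with them added were not tested. Against the sum without *Gapdh*, *Eno1b* came first (0.415 and 0.559).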

How the data were processed

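The 2 libraries hold raw UMI counts per gene and barcode, which the authors deposited as matrices from an inDrop pipeline described earlier. The submitters' notes name mm10 and Seurat 2.3.4; the aligner and the gene annotation are not given in the sources used here. The authors' limits were applied again (at least 500 UMIs, mt- share at most 20%), and no doublet caller was run. Names were found for 54079 of 54146 gene rows, and gene positions came from GENCODE on GRCm38, promoter sequence from RefSeq. A second, nearly empty *Aldoa* row was not used.

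Counts were summed over kept cells and divided by all their UMIs (CPM). Levels carry exact Poisson intervals, shares exact binomial intervals, and ratios of CPM exact binomial intervals for 2 Poisson counts, all at 95% and for counting error only. Calls are ratios past 1.5-fold among genes of at least 200 UMIs over the groups compared. Every ratio was computed with Python 3.11.15, numpy 2.4.6 and scipy 1.17.1. The procedure was tested on simulated Poisson counts only, which hold no spread between cells, clones or libraries beyond counting. With 1 library per condition there is no test and no p-value. The knockout sample was grouped by its treatment label and the wild-type sample by its title. All members are named, as are genes of the isoenzyme, transporter, pentose phosphate and hypoxia-response lists and the 10 genes most like the members' sum. The members and lists were chosen with earlier results of these data known. Alternatives changed the limits on cells, the total, the scaling and the fold. The depth, 11639256 and 9340855 UMIs, puts 3 UMIs at 0.258 and 0.321 CPM.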

Additional observations from a re-analysis of the deposited data

Results flagged for a closer look

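For 3 members the library ratio, KO over WT, lay on opposite sides of 1 in different bins of cells, each with a counting interval that left out 1. The difference between bins was not tested, since each condition is 1 library. *Hk2* had 0.884 (0.788 to 0.992) in cells of mt- share under 1%, 1.18 (1.07 to 1.29) at 1 to 2% and 1.34 (1.199 to 1.498) at 2 to 5%. *Pgk1* had 0.787 (0.684 to 0.904), 1.24 (1.11 to 1.38) and 1.31 (1.14 to 1.51) in the same bins. By depth, *Pgk1* had 0.464 (0.228 to 0.967) in cells of 1000 to 2000 UMIs, 0.784 (0.624 to 0.980) at 2000 to 5000 and 1.20 (1.06 to 1.36) at 10000 or more. *Pgam1* had 0.855 (0.732 to 0.997) at 2000 to 5000 UMIs and 1.46 (1.33 to 1.60) at 10000 or more. In cells under 1% mt- UMIs the median RP share was 13.4% in the WT and 16.0% in the KO library. Among cells of 10% RP UMIs or more, *Pgk1* had 0.843 (0.728 to 0.974) under 1% mt- and 1.16 (1.005 to 1.33) at 1% or more, and *Hk2* 0.907 (0.804 to 1.02) and 1.17 (1.04 to 1.33). Cells under 10% RP and under 1% mt- numbered 15 in the KO library, with 1 *Pgk1* and 10 *Hk2* UMIs.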

How the results depend on the processing

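The summed ratio of 1.41 stayed above 1 under all 16 alternatives. It was 1.43 with RP genes out of the total, 1.36 with median-of-ratios scaling (a factor of 1.04), 1.32 with each cell counted once, 1.44 without cells under 5% RP, 1.37 without cells of 15% RP or more and 1.34 as the mean over RP bins. With settings added after seeing the data, it was 1.51 with copies included and 1.29 without *Gapdh*. The count of 2 members past 1.5-fold was 1 with each cell counted once, 1 without cells of 15% RP or more, 0 as the mean over RP bins, 5 at a mark of 25% higher and 0 at a mark of 100% higher. It was 3, with *Gapdh*, under 6 alternatives. Within libraries, leaving RP genes out of the total gave sums of 1.502 (wild-type) and 1.44 (knockout) for RP-rich cells and 0.296 for knockout cells under 5% RP. Leaving mt- genes out gave 1.30 for knockout RP-rich cells, and a collagen limit of 0.1% gave 0.650 for knockout collagen-rich cells. Of 150 single-member library ratios, 22 moved past their counting interval and 148 stayed above 1, the exceptions being *Pgk1*. Of 220 within libraries, 13 moved past it; no called ratio changed direction in either set. No paired analysis was possible because each condition has 1 library and no result comes from a test. Depth limits the low members in cells under 5% RP, and 1 clone per condition limits every comparison of libraries.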
